A study of Homo sapiens with 6 samples.

Results

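Chromatin modifier and remodeler genes encode the proteins that place, remove and read chemical marks on histones and DNA, or that move nucleosomes. They were taken from the table of alternative polyadenylation (APA) that the authors deposited, by gene symbol: every symbol that begins with KDM, KMT, SETD, EZH, PRMT, KAT, NCOA, HDAC, SIRT, NCOR, SMARC, CHD, ARID, BRD, PHF, CBX, ING, DNMT or TET was included, with a digit after those prefixes that other genes share. This gave 42 of the 2723 genes with a pair of poly(A) sites (PASs). For each gene the table names a proximal PAS (pPAS) and a distal PAS (dPAS), the pair with the highest use within the last-exon 3′ UTR. The choice of symbols used no measured value of the PASs. No gene with an EZH, PRMT or TET symbol had a pair.

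The PASs are annotated sites of the PolyA_DB database to which QuantSeq reads of the human promyelocytic leukemia cell line HL-60 were matched. In QuantSeq, reverse transcription starts at the poly(A) tail so that reads mark the end of an mRNA. OE-CFIm25 cells, of which there were 3 samples, carried a lentiviral construct in which an EF-1a promoter drives the coding sequence of CFIm25 together with a puromycin marker. OE-control cells, also with 3 samples, carried the empty vector, and both groups were treated with 3 nM PMA, a phorbol ester that pushes HL-60 cells toward macrophages, for 6 h. The table gives 1 pair of positions per gene and none per library. The positions thus show which annotated PASs had reads in these cells, and not how PAS use differs between OE-CFIm25 and OE-control. The comparison columns of the table are the authors' own and were not used, and no level per sample or depth per PAS stood behind the values given here. For the same reason the markers of HL-60 cells were not examined, and no test between the groups was made. The values of the 42 genes are set beside those of all 2723 genes, which include them, as a description.

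Chromatin regulators act in large complexes whose subunits are often encoded by families of paralogs, and many of them are known to take part in myeloid differentiation. An mRNA that ends at the pPAS keeps the whole coding sequence but loses the 3′ UTR between both PASs, together with any binding sites for microRNAs and RNA-binding proteins in it. A PAS is recognized through the poly(A) signal AATAAA, or its most common variant ATTAAA, which lies a short way upstream of the cleavage site and is bound by CPSF. CFIm25, a subunit of cleavage factor I, binds UGUA upstream of the signal and is known as a regulator of the choice between PASs.

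The sequences of 5 pairs show what the 2 ends of one mRNA look like, and were chosen after their values were seen as pairs in which both PASs had a signal. Each line gives the 30 nt up to and including the PAS, 5′ to 3′ on the strand of the gene in GRCh37, with the signal nearest to the PAS in capitals.
KMT2D pPAS, chr12:49413021-49413050, minus strand: tttttaaaaAATAAAtcgctgacaagtgtg
KMT2D dPAS, chr12:49412762-49412791, minus strand: aacgacaAATAAAaaaagaacattttaaat
KDM5B pPAS, chr1:202697329-202697358, minus strand: tattgtggAATAAAtccttcgtcctaacat
KDM5B dPAS, chr1:202696533-202696562, minus strand: acttcaaataATTAAAtctctttaagaatg
SMARCA2 pPAS, chr9:2193543-2193572, plus strand: cctgaggcaAATAAAattccagtaatttcg
SMARCA2 dPAS, chr9:2193590-2193619, plus strand: gctttcctAATAAAgaaataatttagcttg
ING1 pPAS, chr13:111373089-111373118, plus strand: cgtgaagaAATAAAtgaaacttggccagtt
ING1 dPAS, chr13:111373391-111373420, plus strand: gtgtccataAATAAAgtttcagcggaacac
SMARCAD1 pPAS, chr4:95211940-95211969, plus strand: tatcattataAATAAActtatttataaatc
SMARCAD1 dPAS, chr4:95212412-95212441, plus strand: cttgggcttAATAAAaatatttgtgatcat
In these 5 genes the first base of the signal lay between 19 and 22 nt from either PAS. KDM5B was the only one of the 5 whose PASs differed in hexamer, with AATAAA at the pPAS and ATTAAA at the dPAS.

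The pPAS and dPAS of the chromatin genes lay closer together than those of the table as a whole. The median distance was 463 nt in the 42 chromatin genes (quartiles 193.25 and 1018.25) and 760 nt in all genes (quartiles 256 and 1756.5). A distance under 500 nt was found in 23 chromatin genes (54.8%) and in 1064 of all genes (39.1%). The spread among the chromatin genes was far wider than this shift, from 33 nt in NCOA6 to 10675 nt in CBX5. By annotation, both sites fell within the last-exon 3′ UTR in all 42 chromatin genes and in 2693 of all genes. This was largely set beforehand, since the authors picked such sites and the transcript was chosen by how well it held them.

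**Figure D1:**
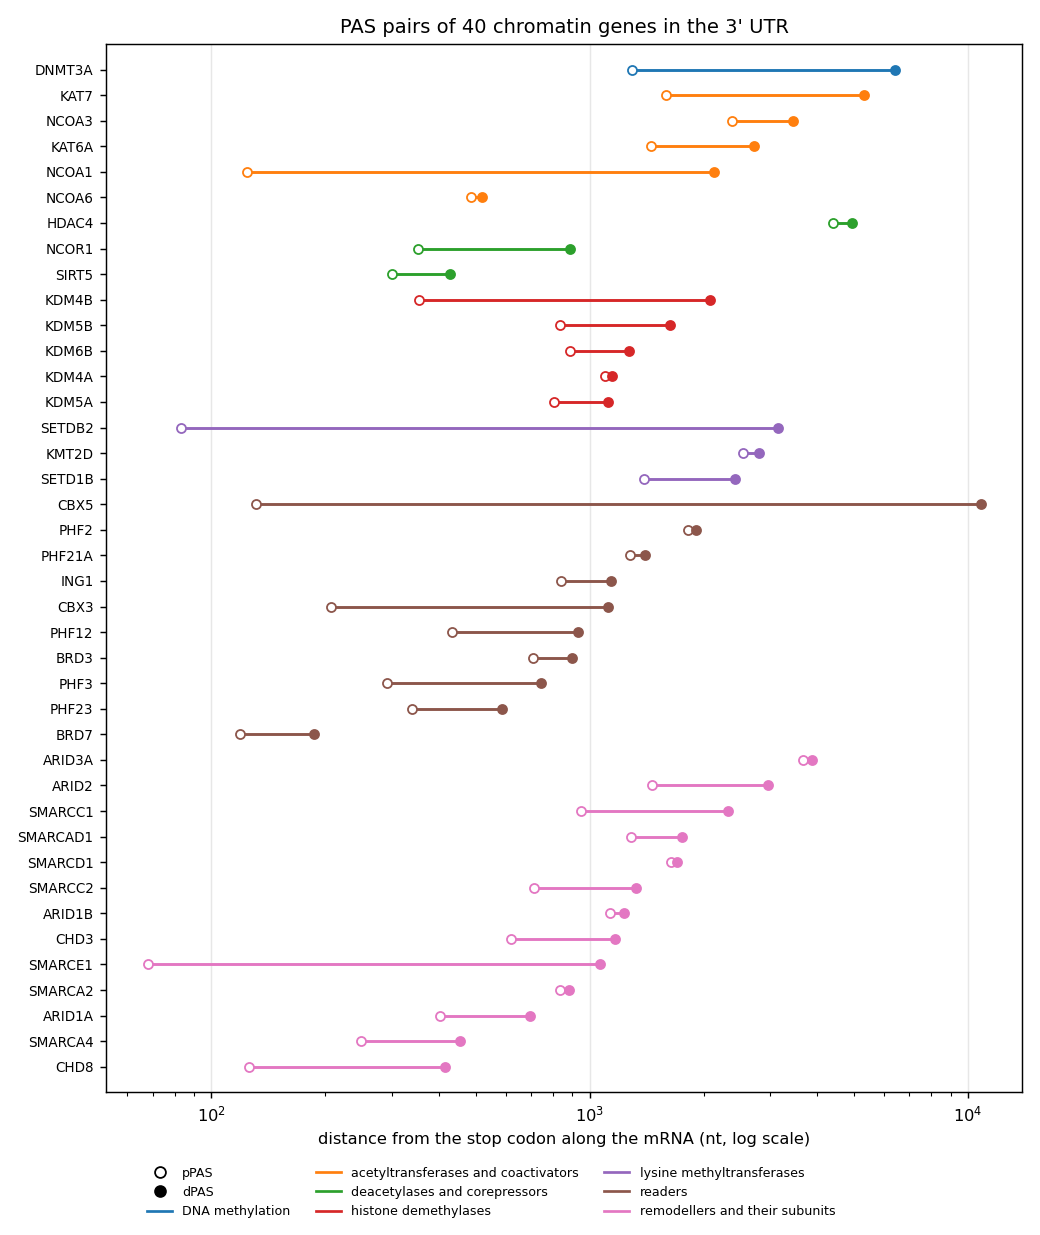
PAS pairs of 40 of the chromatin genes, 1 gene per line and grouped by family. Open circles show the pPAS and filled circles the dPAS, in nt after the stop codon along the mRNA on a log scale. The pair of CBX5 spans 10675 nt and that of NCOA6 only 33 nt.

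The 5 widest pairs came from 4 of the 7 families. The first in order was CBX5, which encodes the heterochromatin protein HP1 alpha, a reader of methylated histone H3. Its pPAS lay 131 nt and its dPAS 10806 nt past the stop codon on chromosome 12, so that the short isoform kept 1.21% of the 3′ UTR of the long one. DNMT3A, the de novo DNA methyltransferase, followed with 5113 nt between its PASs (1295 and 6408 nt past the stop codon, 20.2% kept). KAT7, the acetyltransferase of the HBO1 complex, had 3712 nt between its PASs (1592 and 5304 nt). SETDB2, a SET domain protein of the histone H3 methyltransferase family, had 3064 nt (83 and 3147 nt, 2.64% kept). NCOA1, the steroid receptor coactivator SRC-1, had 2010 nt (124 and 2134 nt, 5.81% kept). Of these 5 genes NCOA1 was the one with A-rich sequence after its pPAS, 19 A in the next 20 nt. Distances of at least 2500 nt were found in 4 chromatin genes (9.52%) and in 424 of all genes (15.6%).

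The closest pair was that of NCOA6, a nuclear receptor coactivator, whose PASs lay 33 nt apart on chromosome 20, at 487 and 520 nt past the stop codon. Distances of 47 nt were found in KDM4A, a demethylase of histone H3 lysines, and in SMARCA2, which encodes BRM, the ATPase of the BAF remodeling complex. SMARCD1, a BAF subunit, had 66 nt, BRD7, a bromodomain subunit of the PBAF form of the complex, 68 nt, and PHF2, a PHD finger protein with a demethylase fold, 86 nt. These 6 genes (14.3%) were the ones under 100 nt, against 294 of all genes (10.8%), and ARID1B, the next in order, had 103 nt. In such pairs both ends lie in one neighborhood. By the annotated PASs, the isoforms of SMARCA2 differ by no more than 47 nt, which also hold the signal of the dPAS, 21 nt before it. Read ends were accepted within 24 nt of a PAS, so in NCOA6, KDM4A and SMARCA2 the ranges of pPAS and dPAS overlap. Whether reads there were assigned to the right PAS was not tested. Distances and shares of the 3′ UTR kept in these genes rest on the annotated positions alone.

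**Figure D2:**
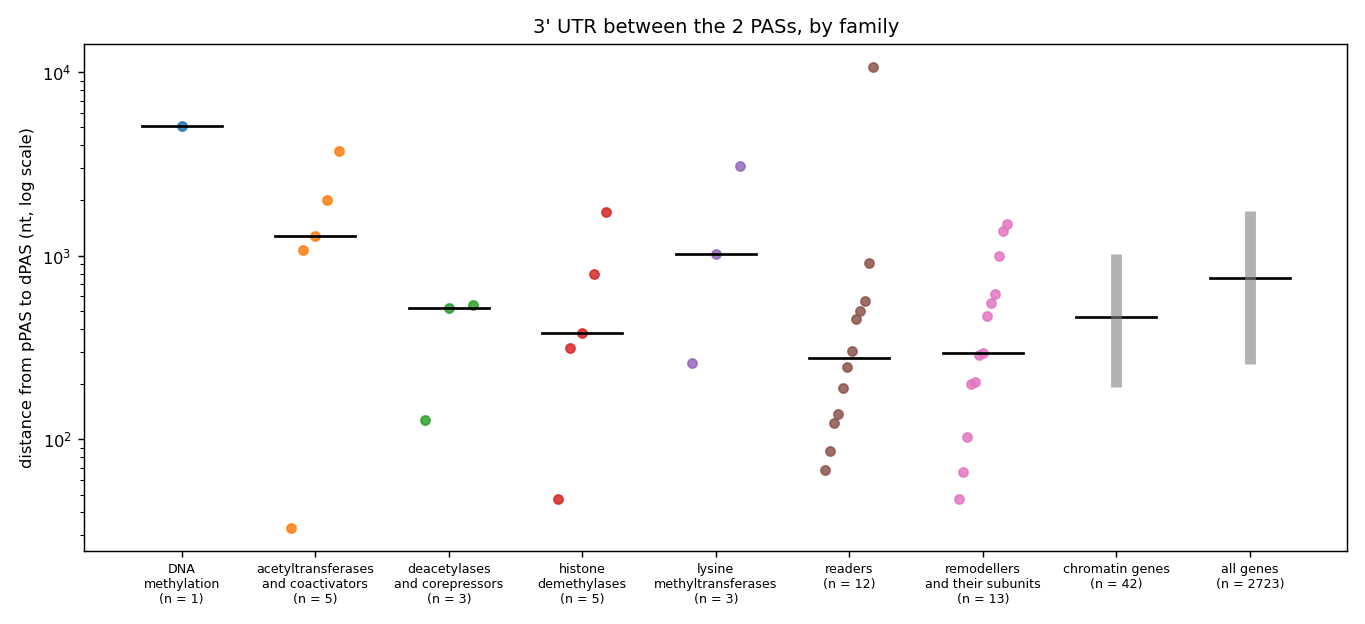
Distance from pPAS to dPAS in nt on a log scale, by family of chromatin genes. Points are genes and black lines are medians; the 2 columns on the right give the median and the quartiles (grey bars) of the 42 chromatin genes and of all 2723 genes. Acetyltransferases and coactivators had a median of 1276 nt and readers a median of 275.5 nt, with overlapping ranges.

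The families were compared by their counts and medians only, since they hold few genes each. The 5 histone demethylases had a median distance of 381 nt. The widest of them was KDM4B, with 1729 nt from position 5151877 to 5153606 (chromosome 19, plus strand) in the last exon, exon 23, of its annotated transcript. Its pPAS isoform kept 17.0% of the 3′ UTR, and the closest pair, that of its paralog KDM4A, kept 95.9% (1097 and 1144 nt past the stop codon, exon 22, chromosome 1). KDM5A and KDM5B, which remove methyl groups from lysine 4 of histone H3, had 314 and 796 nt between their PASs, with 72.0% and 51.2% of the 3′ UTR kept. KDM6B, the H3 lysine 27 demethylase JMJD3 that is induced in activated macrophages, had 381 nt, with 69.9% kept.

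The 3 lysine methyltransferases ranged from 259 nt in KMT2D to 3064 nt in SETDB2. KMT2D, the enhancer methyltransferase MLL4, had its PASs in exon 55 (chromosome 12, minus strand, 49413021 and 49412762), 2542 and 2801 nt past the stop codon, so that 90.8% of the 3′ UTR was kept. The PASs of SETDB2 were in exon 14 (chromosome 13, plus strand, 50066068 and 50069132). SETD1B, the catalytic subunit of a COMPASS methyltransferase complex, lay between them with 1025 nt and 57.6% kept.

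Among the 5 acetyltransferases and coactivators, NCOA6 stood alone at 33 nt, and the other genes had 1078 nt or more. NCOA1 and NCOA3, which encode the p160 coactivators SRC-1 and SRC-3, had 2010 and 1078 nt between their PASs. They differed in where the pPAS lay, at 124 nt past the stop codon in NCOA1 and at 2373 nt in NCOA3, so that 5.81% of the 3′ UTR was kept in NCOA1 and 68.8% in NCOA3. KAT6A, a MYST acetyltransferase known from translocations in myeloid leukemia, had 1276 nt and 53.2% kept. KAT7, of the same MYST family, had its PASs in exon 15 (chromosome 17, plus strand, 47906456 and 47910168).

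The deacetylases and corepressors were 3 genes. NCOR1, the corepressor that brings HDAC3 to nuclear receptors, had 537 nt between its PASs in exon 46 (chromosome 17, minus strand, 15935259 and 15934722), with 39.5% kept. HDAC4, a class IIa deacetylase, had 518 nt, but its pPAS lay 4405 nt past the stop codon, farther than that of any other chromatin gene, so that 89.5% was kept. SIRT5, a mitochondrial lysine desuccinylase of the sirtuin family, had 127 nt (chromosome 6, 13612397 and 13612524, exon 10, 70.3% kept).

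The 13 remodelers and their subunits had a median distance of 294 nt and reached from 47 nt in SMARCA2 to 1498 nt in ARID2. ARID2, a subunit of PBAF, had its PASs in exon 13 (chromosome 12, plus strand, 46300323 and 46301821), 1462 and 2960 nt past the stop codon, with 49.4% kept. The 10 subunits of BAF and PBAF in the table (ARID1A, ARID1B, ARID2, BRD7, SMARCA2, SMARCA4, SMARCC1, SMARCC2, SMARCD1 and SMARCE1) had a median of 249 nt. Pairs of paralogs among them were unlike one another. SMARCA4, which encodes BRG1, had 204 nt between its PASs and kept 55.0% of a 3′ UTR that ended 453 nt past the stop codon, whereas its paralog SMARCA2 had 47 nt and kept 94.7% of one that ended at 880 nt. SMARCC1 and SMARCC2, the BAF155 and BAF170 scaffold subunits, had 1365 and 618 nt, with 41.0% and 53.5% kept. ARID1A and ARID1B, the alternative subunits that define the BAF form, had 294 and 103 nt, with 57.8% and 91.7% kept. SMARCE1, the BAF57 subunit, had the shortest 3′ UTR of any chromatin gene when it ended at the pPAS, which lay 68 nt past the stop codon, and 998 nt more when it ended at the dPAS. CHD3 and CHD8, ATPases of the CHD family, had 552 and 288 nt. SMARCAD1, a remodeler linked to the upkeep of heterochromatin, had 472 nt, and ARID3A, a DNA-binding protein that is no BAF subunit, had 200 nt.

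The 12 readers had a median of 275.5 nt. CBX5 and CBX3, the HP1 alpha and HP1 gamma genes, had the 2 widest pairs of the readers, with 10675 and 912 nt. The pPAS lay close to the stop codon in both, at 131 nt in CBX5 and 207 nt in CBX3, and the share kept was 1.21% in CBX5 and 18.5% in CBX3. BRD3, a bromodomain protein that binds acetylated histones, had 191 nt and kept 78.7%. BRD7 had the closest pair of the readers, with 68 nt between its PASs in exon 17 (chromosome 16, minus strand, 50353003 and 50352935), and its whole 3′ UTR ended 187 nt past the stop codon. The PHD finger genes PHF2, PHF21A, PHF23, PHF3 and PHF12 had 86, 123, 249, 454 and 497 nt, and ING1, a PHD finger subunit of a histone deacetylase complex, had 302 nt.

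In the chromatin genes the pPAS lay farther from the stop codon and the dPAS closer to it than over all genes. The median pPAS lay at 819.5 nt past the stop codon in the chromatin genes and at 572 nt over the 2716 genes with an annotated stop codon. The median dPAS lay at 1298 nt in the chromatin genes and at 1738 nt over all of these genes. The pPAS isoform therefore kept a median of 57.7% of the 3′ UTR in the chromatin genes (quartiles 39.9% and 81.8%) and of 44.7% over all genes (quartiles 19.9% and 73.1%). The lowest shares were those of CBX5, SETDB2, NCOA1 and SMARCE1, all under 7%, and the highest was that of SMARCD1, at 96.1%. The letters between the PASs were G or C in a median of 39.5% in the chromatin genes and 37.3% over all genes.

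A poly(A) signal was less frequent before the pPAS than before the dPAS over all 42 genes. In the 27 chromatin genes with no A-rich sequence after a PAS, described below, it was equally frequent, at 74.1% for either PAS. With another filter, each PAS was kept or left out by the sequence after it alone. No signal then stood at 28.6% of the pPASs and 24.3% of the dPASs of the chromatin genes, against 28.8% and 14.2% over all genes. AATAAA or ATTAAA began within the 40 nt up to the pPAS in 21 of the 42 chromatin genes, against 1511 of all genes (55.5%). Up to the dPAS it was found in 30 chromatin genes (71.4%), against 2187 of all genes (80.3%). In windows of the same length that ended 100 nt upstream, 1 chromatin gene (2.38%) had a match for the pPAS and 3 (7.14%) for the dPAS, against 3.45% and 6.83% of all genes. The hexamer nearest to the PAS was AATAAA in 15 and ATTAAA in 6 of the pPASs, and AATAAA in 24 and ATTAAA in 6 of the dPASs. Its first base lay at a median of 20 nt before the pPAS and 21 nt before the dPAS in the chromatin genes.

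By gene, 15 chromatin genes (35.7%) had a signal at both PASs, against 45.5% of all genes. Only the dPAS had one in 15 (35.7%), against 34.9% of all genes. Only the pPAS had one in 6 (14.3%), against 10.0% of all genes, and neither PAS in 6 (14.3%), against 9.66%. The 6 with a signal at the pPAS alone were CBX3, CHD3, PHF12, PHF2, PHF3 and SMARCD1, of which 4 were among the 12 readers. The 6 with none were KDM5A, SETD1B, BRD3, SMARCC2, ARID1A and ARID1B. A signal was present at the dPAS of all 5 acetyltransferases and coactivators and of all 3 deacetylases and corepressors, and at the dPAS of 8 of the 13 remodelers and 7 of the 12 readers. When single-base variants of AATAAA were also counted, 28 pPASs (66.7%) and 38 dPASs (90.5%) of the chromatin genes had a match, against 76.9% and 92.1% of all genes. These variants include AAAAAA, a plain run of A, which was the match nearest to the pPAS in CBX5, SETD1B and SMARCE1, where AATAAA and ATTAAA were absent. The windows farther upstream were searched for AATAAA and ATTAAA only, so how often a variant matches there is not known.

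At many pPASs without a signal the genome itself continued with a run of A. Priming by oligo(dT) can start at such a run inside an mRNA, so the sequence after each PAS was examined, and sequence was taken as A-rich where 12 or more of the next 20 nt were A or where 6 A stood in a row. This was the case for 14 pPASs of the chromatin genes (33.3%), against 728 of all genes (26.7%), and for 5 dPASs (11.9%), against 279 of all genes (10.2%). Of the 14 chromatin genes with an A-rich pPAS, 13 (92.9%) had no signal there, against 87.6% of all genes with one. Of the other 28, 8 (28.6%) had none, against 28.8% of all genes whose pPAS was not A-rich. Of the 37 dPASs of the chromatin genes that were not A-rich, 9 (24.3%) had no signal, against 14.2% over all genes. Whether any of these PASs comes from priming inside the mRNA was not tested.

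The 14 genes came from 6 of the 7 families. NCOA1 and KAT6A had 19 A in the 20 nt after the pPAS, ARID1A had 18, KDM6B, BRD3 and ARID3A had 17, KDM5A and CHD8 had 16, SETD1B and ARID1B had 15, SMARCC1 had 13 and SIRT5 had 11, with a run of at least 6. NCOA1 of the p160 genes was among them. So were ARID1A, ARID1B and SMARCC1, 3 of the 10 BAF and PBAF subunits (30%), against 26.7% of all genes. ARID3A was the exception with a signal, an ATTAAA that began 7 nt before the pPAS. The dPASs followed by A-rich sequence were those of KDM5A, KDM6B, ARID1A, ARID1B and SMARCE1. For all of these but SMARCE1 the pPAS was A-rich too, so that 15 chromatin genes had an A-rich PAS and 27 had none.

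The sequences around 6 of these pPASs are shown as examples, chosen after the counts were seen. Each line holds 10 nt up to the pPAS in lower case and the 20 nt after it in capitals, 5′ to 3′ on the strand of the gene in GRCh37.
NCOA1, chr2:24991375-24991404, plus strand: gcatttggagCAAAAAAAAAAAAAAAAAAA
ARID1A, chr1:27107640-27107669, plus strand: tttttaatggTAAAAAAAAAAAAAAAAAAT
BRD3, chr9:136897985-136898014, minus strand: acctcaacttTAAAAAAAAAAAAAGAAGAA
CHD8, chr14:21853626-21853655, minus strand: aggtgaaaagGAAAAAAAAAAAAAAATGTA
ARID3A, chr19:975726-975755, plus strand: gtattaaaagGAAAAAAAAAAAAAAAGACA
SMARCC1, chr3:47628729-47628758, minus strand: ctccctctttAAAAAACCCTTTAAAAGAAA
In the first 5 of these the run of A began after 1 other base, and in SMARCC1 the A were broken up by CCCTTT. Without the 15 genes, the median distance of the chromatin genes was 497 nt, and 74.1% of their pPASs and 74.1% of their dPASs had a signal.

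**Figure D3:**
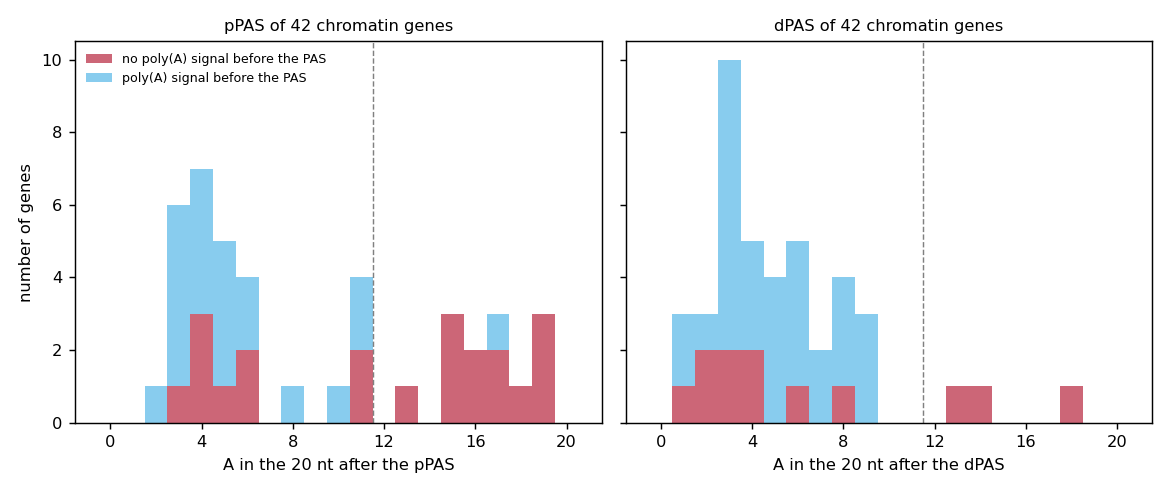
Number of A in the 20 nt after the pPAS (left) and after the dPAS (right) of the 42 chromatin genes. Bars count genes, colored by whether AATAAA or ATTAAA began within the 40 nt up to that PAS, and the dashed line marks 12 A. At the pPAS, 12 of the 13 genes beyond the line had no signal.

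UGUA, the tetramer that CFIm25 binds, was more frequent before the dPAS than before the pPAS in these genes. Matches were counted over the last 100 nt before a PAS, on the strand of the mRNA, as TGTA in the genome sequence. The dPASs of the chromatin genes had 1.36 ± 1.06 UGUA (SD over 42 genes) and those of all genes 0.943 ± 0.999. The pPASs had 0.905 ± 0.906 in the chromatin genes and 0.743 ± 0.939 in all genes. At least 1 UGUA stood before 33 dPASs of the chromatin genes (78.6%), against 1633 of all 2723 genes, and before 26 pPASs (61.9%), against 49.4% of all genes. The SDs were close to the means, and the counts of the chromatin genes and of all genes overlapped over nearly their whole range.

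Gene by gene, the dPAS had more UGUA than the pPAS in 22 chromatin genes (52.4%), against 36.6% of all genes. Both had the same number in 8 (19.0%), against 37.6% of all genes, and the pPAS had more in 12 (28.6%), against 25.8% of all genes. The windows of close pairs overlap. Among the 36 chromatin genes with at least 100 nt between the PASs, 58.3% had more at the dPAS, against 38.5% of the 2429 such genes in the table. Among the 27 chromatin genes with no A-rich PAS the share was 55.6%, against 33.9% of 1816 such genes.

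The largest gain toward the dPAS was 3 UGUA, in KAT6A, CBX3, PHF12 and ARID1A. KAT6A, CBX3 and ARID1A had none before the pPAS and 3 before the dPAS, and PHF12, a PHD finger subunit of a SIN3 corepressor complex, had 1 before the pPAS and 4 before the dPAS. The reverse pattern reached 2 UGUA, in NCOR1, KDM6B, ING1 and SIRT5, which had 2 before the pPAS and none before the dPAS. NCOA6 had the most before its pPAS, with 4 there and 3 before the dPAS, in windows that share most of their letters. Of the HP1 and p160 genes, CBX3, CBX5, NCOA1 and NCOA3 all had none before the pPAS and 3, 1, 2 and 1 before the dPAS. The paralogs ARID1A and ARID1B, and SMARCC1 and SMARCC2, also had none before the pPAS. This was a common state, as only 61.9% of the chromatin genes and 49.4% of all genes had at least 1 there. The BAF ATPases had more before the pPAS, with 1 and 0 in SMARCA2 and 2 and 1 in SMARCA4 before the pPAS and the dPAS.

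**Figure D4:**
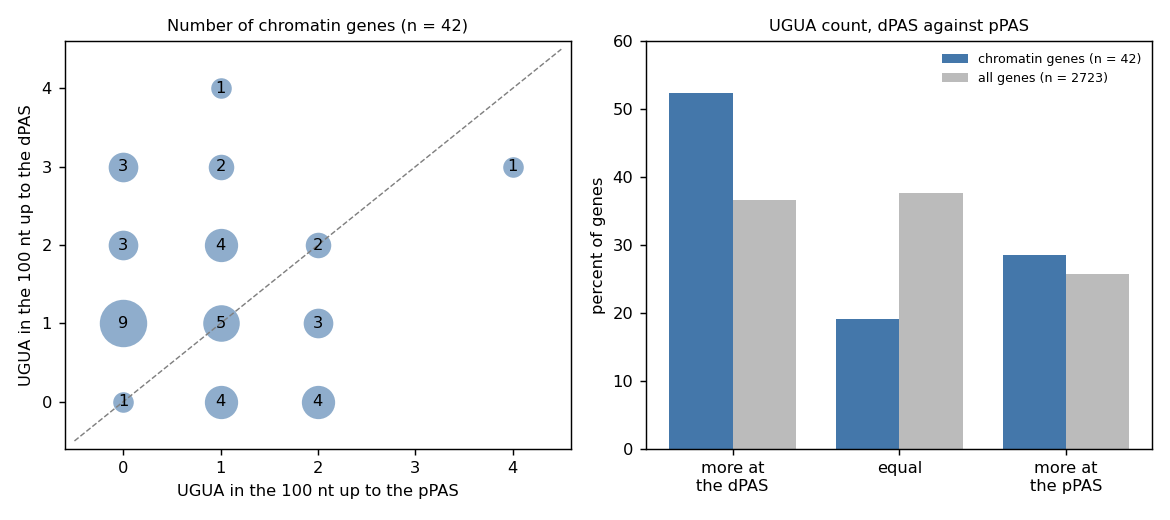
Left, UGUA in the 100 nt up to the pPAS (x axis) and up to the dPAS (y axis) of the 42 chromatin genes; the number in each circle is the number of genes, and the dashed line marks equal counts. Right, percent of genes with more UGUA at the dPAS, equal counts or more at the pPAS, for the chromatin genes (blue, 52.4%, 19.0% and 28.6%) and all 2723 genes (grey, 36.6%, 37.6% and 25.8%).

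The 30 nt with the most UGUA before the dPAS are shown for 4 genes whose dPAS had more UGUA than the pPAS, chosen after the counts were seen, with TGTA in capitals, 5′ to 3′ on the strand of the gene in GRCh37.
PHF12, chr17:27232273-27232302, minus strand: TGTAttcTGTAtataaaaaacaaaaatact
CBX3, chr7:26252905-26252934, plus strand: TGTAtattgtttactttatTGTAaatactg
ARID1A, chr1:27107849-27107878, plus strand: TGTAaacatacTGTAataataatgtctcac
PHF3, chr6:64424287-64424316, plus strand: TGTAaaaTGTAaatattttaagggatattt
Each of the 4 windows held a pair of UGUA. Of these genes, PHF12, CBX3 and PHF3 had a signal at the pPAS and none at the dPAS, and ARID1A had none at either. Lack of a signal was not shared by all genes with such a gain. KAT6A, which also gained 3 UGUA, had AATAAA 24 nt before its dPAS. Of the other genes that gained 2, as PHF3 did, NCOA1 had AATAAA and ARID3A had ATTAAA before the dPAS, and ARID1B and CHD3 had neither.

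The 3′ UTR between the PASs, which only the long isoform carries, came to 42983 nt over the 42 chromatin genes, and CBX5 alone made up 24.8% of it. UGUA occurred there 250 times, at 5.82 per kb, against 5.90 per kb over all genes. AUUUA, the core of AU-rich elements, occurred 83 times, at 1.93 per kb, against 2.34 per kb over all genes, with 21 of them in CBX5 and 10 in SETDB2. UGUANAUA, the motif bound by Pumilio proteins, which contains UGUA, occurred 24 times, at 0.558 per kb, against 0.237 per kb over all genes, and was found in 16 chromatin genes (38.1%), against 21.3% of all genes. ARID2 and PHF12 had 3 each, the most of any chromatin gene, and DNMT3A, NCOA1, NCOA3 and SETD1B had 2 each. Of the genes with wide segments, CBX5 and SETDB2 had none.

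Matches to the seeds of 10 microRNAs known from myeloid cells or growth control were counted in the same segments. The match was the reverse complement of bases 2 to 8, on the strand of the mRNA, and the 2 microRNAs with the highest rate of matches in the chromatin genes are printed from RefSeq with this seed in capitals.
miR-29a-3p: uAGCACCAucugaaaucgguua
let-7a-5p: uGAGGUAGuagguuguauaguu
At least 1 of the 10 matches stood in 16 chromatin genes (38.1%), against 50.7% of all genes. These shares take no account of length, and the segments of the chromatin genes were shorter, with a median of 463 nt against 760 nt. The 42 matches were unevenly spread. CBX5, DNMT3A, KAT7 and SETDB2, which make up 52.5% of the total length, held 26 of them, of which CBX5 held 12. The miR-29a-3p match TGGTGCT occurred 8 times, at 0.186 per kb, against 0.0876 per kb over all genes, with 3 in DNMT3A, 3 in CBX5, 1 in SETDB2 and 1 in SMARCA2. By gene there was no difference, with a match in 9.52% of the chromatin genes and 9.51% of all genes. The let-7a-5p match CTACCTC occurred 7 times, at 0.163 per kb, against 0.0561 per kb over all genes, with 2 in CBX5 and 1 each in KAT7, NCOA1, NCOA3, SMARCAD1 and SMARCC1, so that 14.3% of the chromatin genes and 6.61% of all genes had one. Over the 10 microRNAs the rate was higher in the chromatin genes than in all genes for 5 and lower for 5. Among the lower ones, miR-16-5p had 0.0931 per kb in the chromatin genes and 0.170 per kb in all genes, miR-17-5p had 0.140 and 0.193, miR-26a-5p had 0.0465 and 0.0905, miR-146a-5p had 0.0233 and 0.0737, and miR-155-5p had 0.0698 and 0.0728. A match is a run of letters, and nothing here measured whether a microRNA binds there.

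DNMT3A is known as a target of the miR-29 family, and its 3 matches between the PASs are printed in 23 nt each, 5′ to 3′ on the minus strand of chromosome 2 in GRCh37, with the match in capitals.
DNMT3A, 10 nt after the pPAS, chr2:25455836-25455858: acatacaaaacgtacTGGTGCTt
DNMT3A, 1703 nt after the pPAS, chr2:25454143-25454165: tccctgtgctaactgTGGTGCTc
DNMT3A, 1961 nt after the pPAS, chr2:25453885-25453907: caccggaactgggccTGGTGCTc
All 3 lie past the annotated pPAS, and those at 1703 and 1961 nt are in sequence that the short isoform lacks. The match at 10 nt lies within the range around a PAS in which read ends were accepted. Whether short isoforms end before or after that match was not tested. In ARID1A and BRD3, whose segments are short, 2 matches overlapped each other: those to miR-101-3p in the 294 nt of ARID1A began 177 and 182 nt after the pPAS, and those to miR-16-5p in the 191 nt of BRD3 began 123 and 126 nt after it.

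Other annotated genes overlapped the segment between the PASs in 8 chromatin genes. On the opposite strand these were BRD3OS for BRD3, KDM4A-AS1 for KDM4A, DDN-AS1 for KMT2D, SULF2 for NCOA3, TTC19 for NCOR1 and MYL6 for SMARCC2. On the same strand they were the microRNA gene MIR3198-2 inside the 10675 nt of CBX5 and gene models without a symbol in KDM4A, KMT2D, SMARCC2 and SMARCE1. In all 8 the authors' table assigns the PASs to the chromatin gene.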

How the data were processed

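QuantSeq FWD libraries of PMA-treated HL-60 cells, 3 of OE-CFIm25 and 3 of OE-control, were compared by the authors. The submitters' processing notes name STAR 2.7.7a and hg19. Per the methods, reads whose ends aligned within 24 nt of a PAS of the PolyA_DB database were kept, and the pair of PASs with the highest use within the last-exon 3′ UTR was taken as pPAS and dPAS. The deposited table holds these positions, with a relative expression difference between the groups, its adjusted p and a label of the change. These 3 columns are the authors' comparison and were not used. The 24 columns of library statistics name libraries that match no sample and were not used either, so depth is not given. Replicates of a group are separate samples by the labels, and no p-value was computed.

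After 1 repeated row was removed, 2723 genes remained of 2724 rows. The genes described, their families and complexes, the motifs and the printed sequences were chosen with earlier results of these data known. Every gene could be named, and full values were given for the widest and closest pair of each family, the 5 widest and 5 closest pairs, the genes with the largest difference in UGUA and those with an A-rich PAS. Values of 2 of the 42 genes are counted in the totals and are not reported here by gene. Sequence was read from GRCh37, the build of hg19, and annotated with GENCODE release 44 mapped to GRCh37, on the transcript whose last exon holds the PASs. The signal was sought in 40 nt, UGUA in 100 nt and A-rich sequence in 20 nt. Motif counts include overlapping matches on the strand of the mRNA. Motif counting was tested on simulated sequence. Python 3.11.15 with numpy 2.4.6, pandas 2.3.3, scipy 1.17.1, pysam 0.24.0 and matplotlib 3.10.9 was used.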

Additional observations from a re-analysis of the deposited data

How the results depend on the processing

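No paired analysis was possible because no per-sample values were in the table, and leaving out a sample was not possible for the same reason. Of 28 recomputed values, 6 lay outside the 95% interval of the main value, which covers counting error or, for medians, the uncertainty of the median itself. A count was set against 1.5 times itself. The share of chromatin genes with a signal before the pPAS, 21 of 42, was 66.7% when single-base variants of AATAAA were counted. It was 74.1% in the chromatin genes with no A-rich PAS, an alternative added after seeing the data. The dPAS also had 74.1% there, so that the PASs did not differ in these genes, and the share in all genes chosen the same way is not given. With each PAS filtered by the sequence after it alone, 28.6% of the pPASs and 24.3% of the dPASs of the chromatin genes had no signal. With AATAAA alone the pPAS share was 35.7%. Before the dPAS, 71.4% became 90.5% with the variants. Taken as the median over genes instead of the pooled rate, UGUA between the PASs was 7.25 per kb against a pooled 5.82, AUUUA was 1.17 against 1.93, and UGUANAUA was 0 against 0.558. The share of chromatin genes with more UGUA at the dPAS, 52.4%, ranged from 42.9% with a window of 50 nt to 58.3% in pairs at least 100 nt apart. For the window of 50 nt no share over all genes is given, so the contrast with all genes is not shown for it. Leaving out the ARID and PHF symbols left 33 genes. A transcript chosen by its longest coding sequence changed the share of the 3′ UTR kept in 2 genes. The number of genes and the choice of 1 pair per gene limit what these values can show.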
